A study of Homo sapiens with 267 samples.

Results

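The genes described are 10 genes downstream of the signalling factor STAT5 and around the growth regulator MYC, measured in libraries of K562 cells: MYC, ODC1, PIM1, PIM2, CISH, SOCS1, SOCS2, SOCS3, ID1 and ID2. They were chosen by symbol, and each symbol matched 1 row of the count table, so that 10 of its 63677 genes are described. K562 is an established human myelogenous leukaemia line. It makes the fusion kinase BCR-ABL, the target of the drug imatinib. BCR-ABL keeps STAT5 phosphorylated without a cytokine, and phosphorylated STAT5 enters the nucleus and switches on genes such as PIM1, CISH and SOCS2. CISH and the SOCS proteins in turn dampen cytokine signalling, a negative feedback loop, while MYC drives ribosome building, metabolism and cell division.

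The study tested whether cells fixed with the reversible cross-linker DSP could be stored before single-cell RNA sequencing on the C1 microfluidic system. Its K562 libraries fall into 3 runs by their titles and stains, each from cells of the same line with no engineered allele. In the first run, 96 untreated libraries of passages 90 to 92 were stained with Hoechst 33342 and propidium iodide (the Hoechst run). In both other runs, of passages 20 to 22, the untreated cells carried CellTracker Green CMFDA and the drug-labelled cells CellTracker Orange CMRA, each with a fixable red dead-cell stain by which dead cells were kept out of sequencing. The benzene-labelled run had 36 Green libraries with counts and 35 Orange libraries labelled with 10 mM benzene for 3 h. The imatinib-labelled run had 51 Green libraries and 45 Orange libraries labelled with 1 µM imatinib for 1 h. The labels write the passages with hours as the unit, and neither drug is mentioned in the study's methods. The stain and the drug label coincide in every library, so within a run a difference between Orange and Green cannot be told apart from a difference between dyes. The labels name no replicate cultures, so each stain of a run is treated as 1 culture and no test between groups was possible. The spread over libraries can also hold differences between fresh, fixed and bulk material. Fixed and fresh cells, storage times, single cells and bulk samples were not told apart by the labels, so a library is not always 1 cell. Their shares in Orange and in Green are unknown, so a difference between stains cannot be told apart from a difference in them either.

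Reads on genes ranged from 50358 to 2043351 per library. Levels are given as CPM, the reads of a gene per 1000000 reads on genes in that library. Of 263 libraries, 21 took over 70% of their reads from 500 genes and were set aside, 14 of them from the Hoechst run. All 12 K562 and erythroid marker genes were read in every run, and their summed level had a median between 7986 and 10031 CPM by run. FCN1, ELANE, KRT5 and LUM, markers of myeloid, epithelial and stromal cells, had no reads in the kept libraries. The T-cell gene CD3D had reads in 92.7% of Hoechst libraries (median 107 CPM), and in 46.2% and 31.6% of libraries of the benzene- and imatinib-labelled runs. EPCAM had reads in 83.1% to 95.8% of the libraries of each run. The Hoechst run came from another lot of cells and was sequenced on another instrument with longer reads. By the study's methods and results, dead cells were also sequenced in it, and its fixed cells were stored for longer. Lot, passage, stain, sequencing, dead cells and storage therefore cannot be told apart between it and the others.

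The promoter of CISH is shown because it held the most matches to the STAT motif among the genes with a RefSeq entry. STAT dimers bind the palindrome TTCNNNGAA, in which N is any base and which reads the same on both strands. In the 250 bases before the RefSeq start of CISH (GRCh38.p14, chromosome 3, minus strand) this motif occurred at 4 places. The stretches that hold them are given 5′ to 3′ with the motif in capitals, the first at chr3:50611991-50612020 and the second at chr3:50611876-50611905.
CISH distal pair: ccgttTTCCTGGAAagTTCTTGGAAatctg
CISH proximal pair: ggTTCTAGGAAgacgctgcTTCCGGGAAgg

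The 4 matches began 241, 230, 129 and 112 bases before the start and did not overlap each other. Of 35116 RefSeq promoter windows of this kind, 6.57% held the motif and 5 held it 4 times, which was the highest number found. The windows of PIM1, PIM2, SOCS1, SOCS3, ID1, ID2 and ODC1 did not hold these letters. The E-box CACGTG, the best known binding site of MYC with its partner MAX, also reads the same on both strands and was found in 6.34% of windows. Among these genes it occurred once, 29 bases before the start in the second of 2 windows of ODC1. MYC and SOCS2 had no entry.

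MYC, on chromosome 8 (ENSG00000136997, GRCh37, 128747680 to 128755197, plus strand), encodes the transcription factor itself. It had reads in every kept library of the Hoechst run and of the benzene-labelled run. In the Hoechst run it ranged from 1.23 to 607 CPM with a median of 80.7 CPM. In the Green cells of the benzene-labelled run the range was 3.85 to 673 CPM and the median 172 CPM, and in those of the imatinib-labelled run 1.73 to 637 CPM and 121 CPM. These ranges overlapped almost wholly. MYC exons overlap those of CASC11 on the opposite strand, and the library kit does not mark strand, so reads of the shared stretch cannot be assigned.

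ODC1, ornithine decarboxylase, makes the first polyamine and is a classical MYC target (ENSG00000115758, chromosome 2, 10580094 to 10588453, minus strand). It was among the most abundant of these genes and was read in every kept library. Its median was 189 CPM in the Hoechst run (range 5.63 to 1132), 262 CPM in benzene-run Green (2.04 to 1531) and 392 CPM in imatinib-run Green (2.51 to 1034).

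The kinases PIM1 and PIM2 promote survival and translation and are active once made. Their protein and its activity were not measured here. PIM1 (ENSG00000137193, chromosome 6, 37137928 to 37143204, plus strand) had the largest difference of mean level between any pair of runs. Its median was 403 CPM in the Hoechst run (16.6 to 1377), 118 CPM in benzene-run Green (9.95 to 548) and 43.1 CPM in imatinib-run Green (0 to 168). The ranges overlapped, but 95.4% of pairs of a Hoechst and an imatinib-run Green library had PIM1 higher in the Hoechst library. PIM2 (ENSG00000102096, X chromosome, 48770459 to 48776301, minus strand) followed another order. Its median was 199 CPM in the Hoechst run (1.70 to 949), 118 CPM in benzene-run Green (7.46 to 411) and 277 CPM in imatinib-run Green (59.3 to 849). The lowest imatinib-run Green library, at 59.3 CPM, lay well above the lowest library of the other runs.

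CISH (ENSG00000114737, chromosome 3, 50643920 to 50649205, minus strand) and SOCS2 (ENSG00000120833, chromosome 12, 93963590 to 93977263, plus strand) encode feedback inhibitors of receptor signalling. CISH was uneven between libraries. In imatinib-run Green it had no reads in 6 of 50 libraries, a median of 38.97 CPM and a highest value of 453 CPM. In benzene-run Green the median was 56.1 CPM and the highest 822 CPM, with reads in 27 of 31 libraries, and in the Hoechst run 105 CPM and 1545 CPM, with reads in 77 of 82. The standard deviation (SD) of log2(CPM + 1) over libraries was 2.66 to 3.26 in these groups, against 1.23 to 1.73 for PIM1. SOCS2 had medians of 48.4 CPM in the Hoechst run (0 to 1075), 51.1 CPM in benzene-run Green (0 to 808) and 40.6 CPM in imatinib-run Green (0 to 209). CISH exons overlap MAPKAPK3, and those of SOCS2 overlap SOCS2-AS1, on the opposite strand.

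SOCS1 and SOCS3, inhibitors of JAK kinases that many cytokines induce, were read in few libraries. SOCS1 (ENSG00000185338, chromosome 16, 11348274 to 11350061, minus strand) had reads in 28 of 82 Hoechst libraries (34.1%, exact 95% binomial interval 24.03% to 45.4%). It had reads in 3 of 65 libraries of the benzene-labelled run (4.62%) and in 2 of 95 of the imatinib-labelled run (2.11%). SOCS3 (ENSG00000184557, chromosome 17, 76352859 to 76356158, minus strand) had reads in 39 of 82, 8 of 65 and 11 of 95 libraries, or 47.6%, 12.3% and 11.6%. After thinning to 500000 reads, which 2 Hoechst libraries did not reach, the Hoechst shares were 28.8% for SOCS1 (23 of 80) and 38.8% for SOCS3 (31 of 80), against 9.23% or less in the CellTracker runs. Highest values in the Hoechst run were 59.96 CPM for SOCS1 and 53.4 CPM for SOCS3, and the median was 0 for both in every run. Binomial intervals here and below cover the sampling of libraries within 1 group. The intervals of ratios below cover the counting of reads only, which were amplified by PCR and carry no molecular identifiers.

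ID1 (ENSG00000125968, chromosome 20, 30193086 to 30194318, plus strand) and ID2 (ENSG00000115738, chromosome 2, 8818975 to 8824591, plus strand) encode partners of basic helix-loop-helix factors that keep them from binding DNA. They had opposite patterns across the runs. ID1 had reads in 65 of 82 Hoechst libraries (79.3%) and in 16 of 31 and 29 of 50 Green libraries of the benzene- and imatinib-labelled runs (51.6% and 58%). ID2 had reads in 34 of 82 Hoechst libraries (41.5%) and in 20 of 31 and 35 of 50 Green libraries (64.5% and 70%). Single libraries reached 401 CPM of ID1 and 136 CPM of ID2 in the Hoechst run, and 412 CPM of ID2 in benzene-run Green. ID2 exons overlap ID2-AS1 on the opposite strand.

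**Figure D1:**
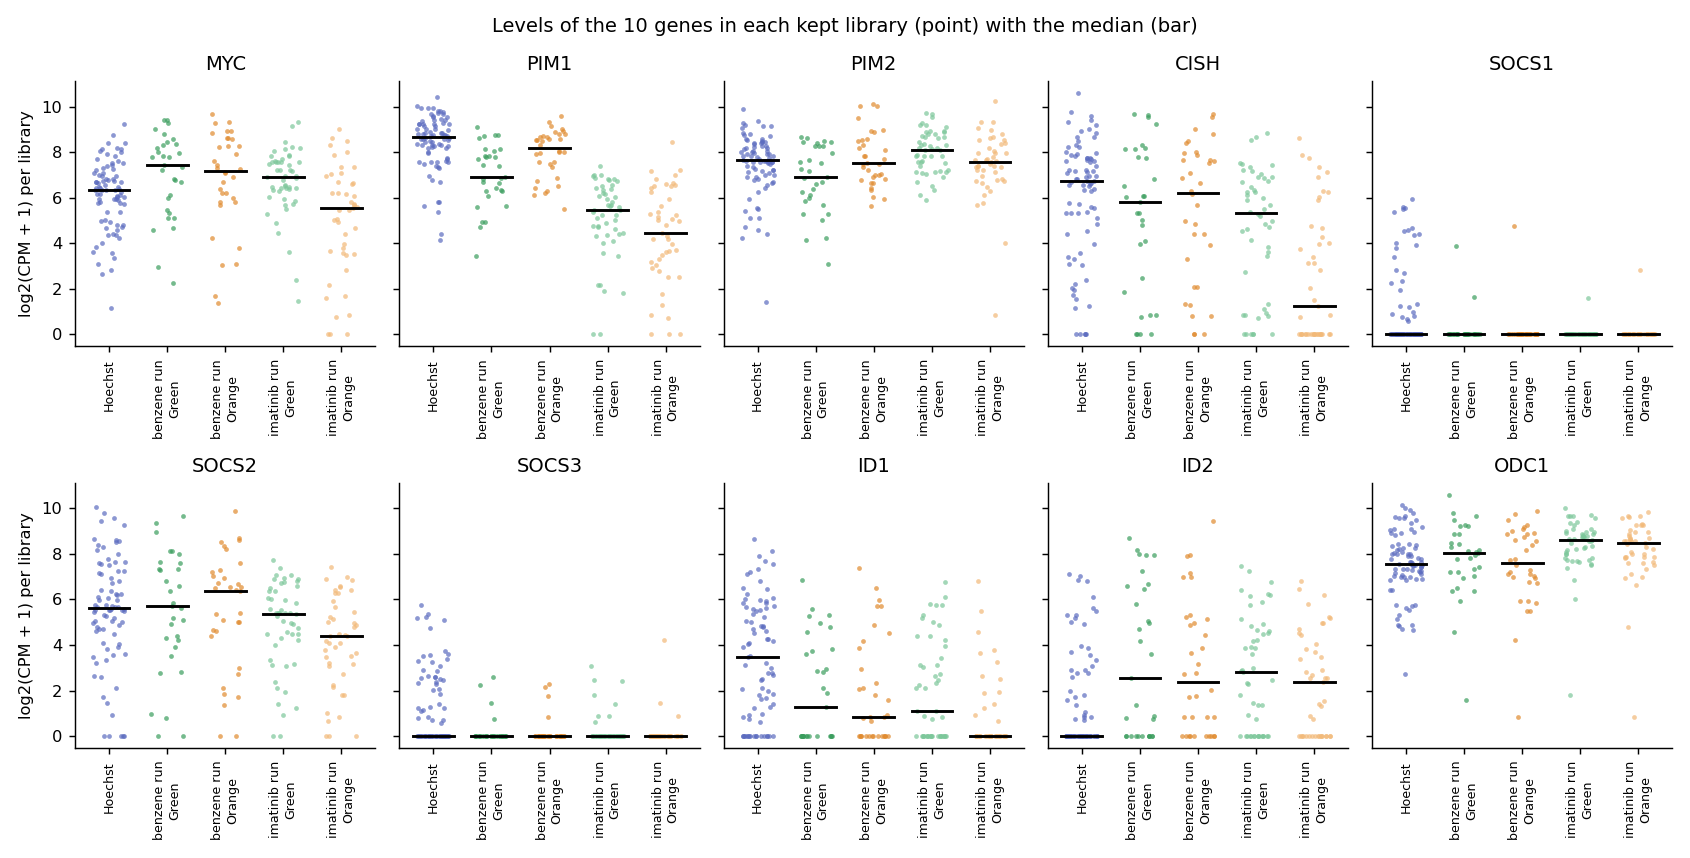
Level of each of the 10 genes, as log2(CPM + 1), in every kept library (points) of the 5 groups, with the group median as a bar. PIM1 steps down from the Hoechst run to the imatinib-labelled run, and the Orange cells of the imatinib-labelled run have lower medians than Green for MYC (45.4 against 121 CPM) and CISH (1.41 against 38.97 CPM).

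**Figure D2:**
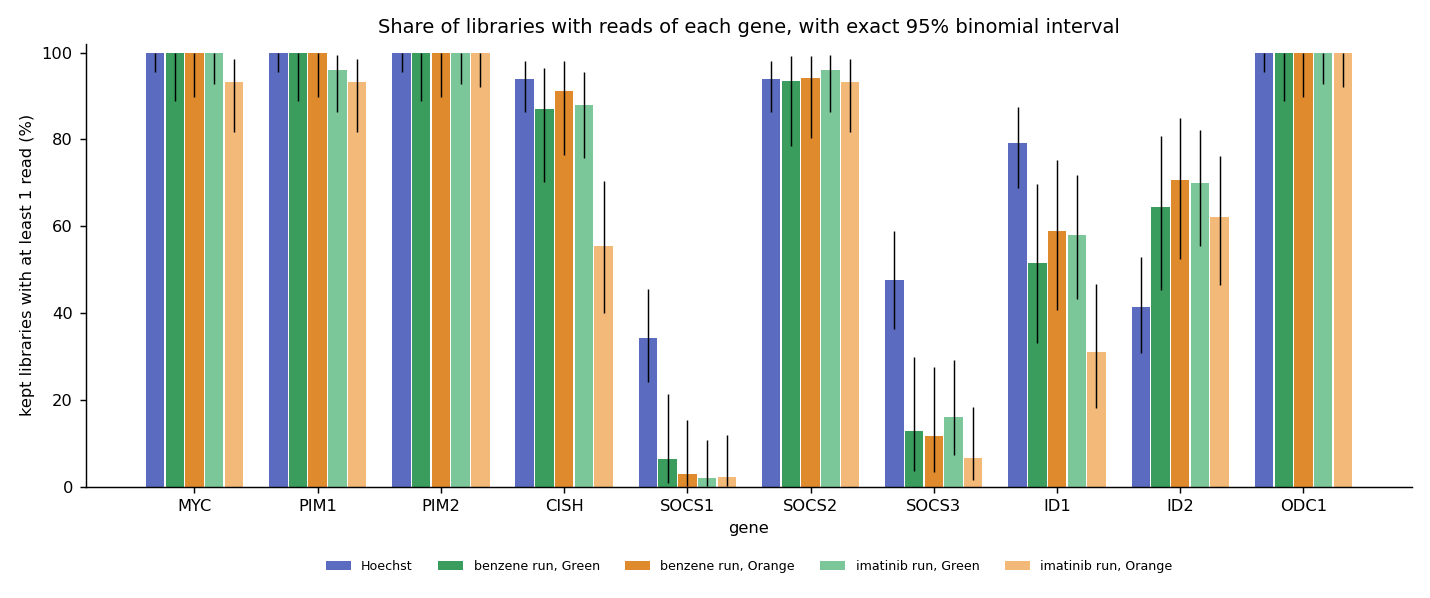
Share of kept libraries with at least 1 read of each gene, in percent, by group, with the exact 95% binomial interval (lines). SOCS1 and SOCS3 are highest in the Hoechst run (34.1% and 47.6%), and CISH stands at 55.6% in the Orange cells of the imatinib-labelled run against 88% in Green.

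Between genes, levels were compared per kilobase of exon, as means of log2(CPM per kb + 1). The length was that of all exons of a gene in GENCODE v44lift37 joined, 6109 bases for MYC and 2761 for PIM2. It can exceed the length of the RNA made, and the order under other lengths was not tested. In the Hoechst run PIM1 came first at 6.85 (SD 1.21), followed by PIM2 at 6.02 (SD 1.31) and ODC1 at 5.86 (SD 1.40). In imatinib-run Green the order was ODC1 at 6.68 (SD 1.15), PIM2 at 6.58 (SD 0.93), MYC at 4.23 (SD 1.28) and PIM1 at 3.67 (SD 1.46). SOCS1 and SOCS3 were last in every group. With these lengths, neighbours in these orders differed by less than the larger SD over libraries, with 1 exception. In the imatinib-labelled run PIM2 stood apart from the gene below it, by 2.35 in Green and 2.97 in Orange.

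Between the untreated cells of the runs, PIM1 was the only one of the 10 genes whose mean log2(CPM + 1) differed by more than the larger SD, and it did so in each of the 3 comparisons. The means were 8.44 in the Hoechst run, 6.99 in benzene-run Green and 5.10 in imatinib-run Green. The differences were 1.45, 3.34 and 1.89 for Hoechst against benzene Green, Hoechst against imatinib Green and benzene Green against imatinib Green. Over all genes tested in these comparisons, 2.63%, 1.71% and 0.357% were higher in the first group by this measure, and 1.05%, 2.94% and 3.68% were lower. PIM2 did not share the pattern, since its mean was 1.21 lower in benzene-run Green than in imatinib-run Green, within the SD of 1.49.

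In the imatinib-labelled run, the comparison of Orange with Green asks how these genes stood in the cells labelled as treated with the BCR-ABL inhibitor. All 8 genes read in at least 20% of the libraries were lower in Orange, by the ratio of CPM of the reads summed over each stain (log2, with 1 CPM added). MYC, CISH, ID1 and ID2 were lower by 1.5-fold or more, 4 of 8, against 11.9% of the 12807 genes tested. None was 1.5-fold higher, against 10.2% of all genes. At 2-fold, CISH and ID1 were lower, against 4.49% of all genes, and none was higher, against 3.99%. The median log2 ratio of the 8 was -0.61, and that of all tested genes -0.02. Green was represented by 50 libraries and Orange by 45. The genes were chosen with earlier results of these data known, so setting them beside the shares of all genes describes and does not test.

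The sum of a gene's reads can rest on a few libraries, so the share of library pairs with the Orange library above the Green library (ties counted as equal parts) was also taken, where 50% stands for no difference. This share was under 40% for 6 of the 8 genes, MYC, CISH, ID1, PIM2, SOCS2 and PIM1, against 5.1% of all genes tested. It was over 60% for none, against 3.12%. Ties draw the share of genes read in few libraries towards 50%, so these shares of all genes are not matched for detection. Of the 12 K562 and erythroid markers, NFE2 (31.9%), TFRC (33.9%) and RHAG (39.2%) were also under 40%. The other markers lay between 40.98% and 55.6%. The share of pairs was added after the ratios were seen. ID2 and ODC1 lay at 43.7% and 44.3%, and PIM1, at 39.1%, between 38.02% and 40.9% under the other choices of libraries, totals and depth.

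MYC was read in 50 of 50 Green and 42 of 45 Orange libraries. In Green it ranged from 1.73 to 637 CPM with a median of 121 CPM, and in Orange from 0 to 517 CPM with a median of 45.4 CPM. The ranges overlapped, and 11 of 45 Orange libraries lay above the Green median. The summed level was 84.2 CPM in Orange and 151 CPM in Green, a log2 ratio of -0.84 (95% counting interval -0.89 to -0.79), or 1.79-fold lower. Orange was higher in 27.9% of library pairs. This share lay between 27.3% and 29.2% under the same other choices.

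CISH differed in the number of libraries with reads as well as in its level. It was read in 44 of 50 Green libraries (88%, exact interval 75.7% to 95.5%) and in 25 of 45 Orange libraries (55.6%, 39.997% to 70.4%). After thinning to equal depth these were 40 of 50 and 24 of 45. The median was 38.97 CPM in Green and 1.41 CPM in Orange, with highest values of 453 CPM and 388 CPM. Some Orange libraries still reached Green levels, and 10 of 45 were above the Green median. The summed level was 36.9 CPM in Orange and 77.02 CPM in Green, a log2 ratio of -1.04 (-1.11 to -0.97), and Orange was higher in 29.8% of pairs. Among the libraries with reads, the difference of mean log2(CPM + 1) was -0.64, against -2.05 over all libraries. In the summed reads, fewer expressing cells and less RNA per cell cannot be told apart.

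ID1 was read in 29 of 50 Green libraries and in 14 of 45 Orange libraries (31.1%, 18.2% to 46.6%). Green ranged from 0 to 108 CPM with a median of 1.14 CPM, and Orange from 0 to 112 CPM with a median of 0. The summed level was 4.64 CPM in Orange and 12.5 CPM in Green, a log2 ratio of -1.26 (-1.43 to -1.09). A single Orange library held 41.8% of the Orange reads, and without the highest library of each stain the ratio was -1.62. ID2 was read in 35 of 50 Green and 28 of 45 Orange libraries, with medians of 6.14 and 4.17 CPM and highest values of 175 and 110 CPM. Its log2 ratio was -0.63 (-0.75 to -0.52), yet Orange was higher in 43.7% of pairs, and the 5 highest libraries of each stain held 47.5% of its Green and 54.7% of its Orange reads.

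SOCS2 lay just short of 1.5-fold, with a log2 ratio of -0.58 (-0.66 to -0.50). Its median was 40.6 CPM in Green (0 to 209) and 19.8 CPM in Orange (0 to 169), and 13 of 45 Orange libraries exceeded the Green median. PIM2 had medians of 277 CPM in Green (59.3 to 849) and 190 CPM in Orange (0.810 to 1221), and a log2 ratio of -0.37 (-0.40 to -0.33). PIM1 had medians of 43.1 CPM in Green (0 to 168) and 20.6 CPM in Orange (0 to 346). The highest PIM1 value of the run was thus in an Orange library, which held 17.4% of the Orange reads. The log2 ratio of PIM1 was -0.28 (-0.35 to -0.20), and -0.44 without the highest library of each stain.

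ODC1 differed least, with medians of 392 CPM in Green (2.51 to 1034) and 359 CPM in Orange (0.810 to 921) and a log2 ratio of -0.16 (-0.19 to -0.14). SOCS1 and SOCS3 were too rare to compare: SOCS1 had 3 reads in Green and 8 in Orange, and SOCS3 30 and 32, of which 29 of the Orange reads were in 1 library.

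The Orange libraries of this run had a median of 7797 genes with more than 2 reads against 8082 in Green. Their median share of ERCC spike-in reads was 8.48% against 7.61%, and of mitochondrial reads 7.02% against 6.32%. The part of these differences in the values above was not tested.

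**Figure D3:**
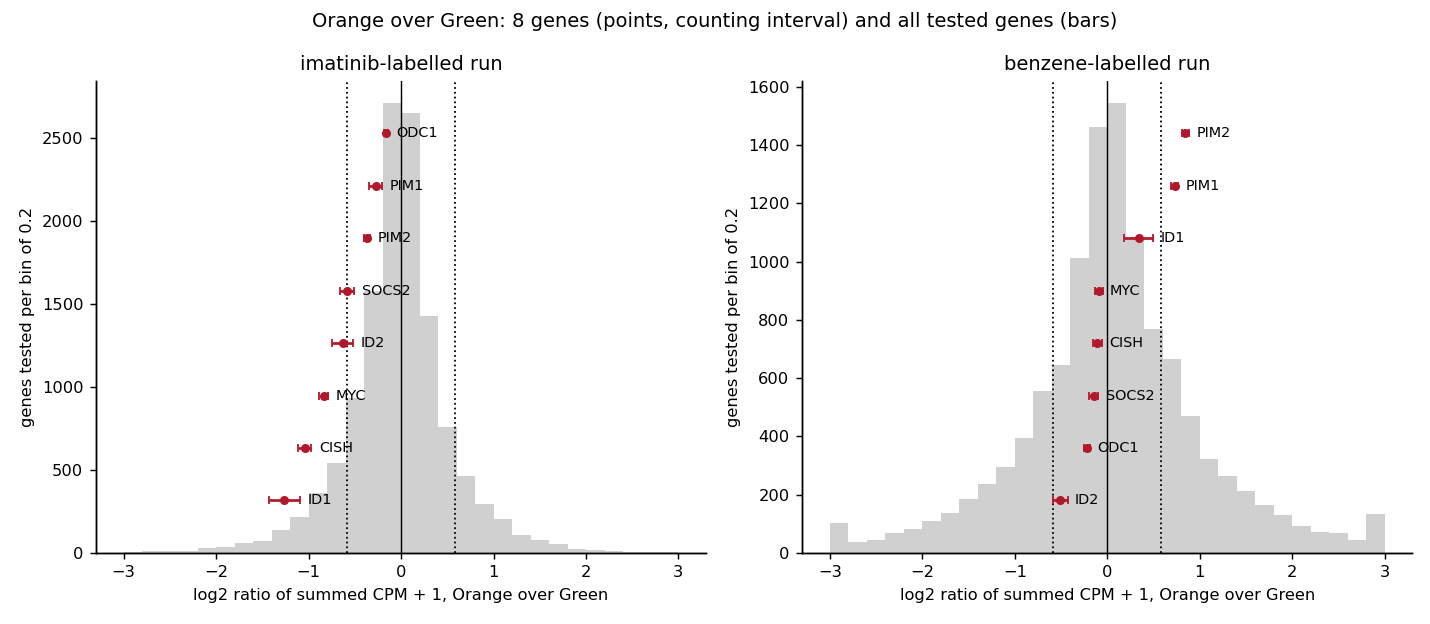
Log2 ratio of summed CPM + 1, Orange over Green, for the 8 genes tested (red points, line for the 95% counting interval) over the histogram of all tested genes (grey bars, with values beyond 3 in the outermost bins), in each CellTracker run. Dotted lines mark 1.5-fold: MYC, CISH, ID1 and ID2 lie beyond it on the low side in the imatinib-labelled run, and PIM1 and PIM2 on the high side in the benzene-labelled run.

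**Figure D4:**
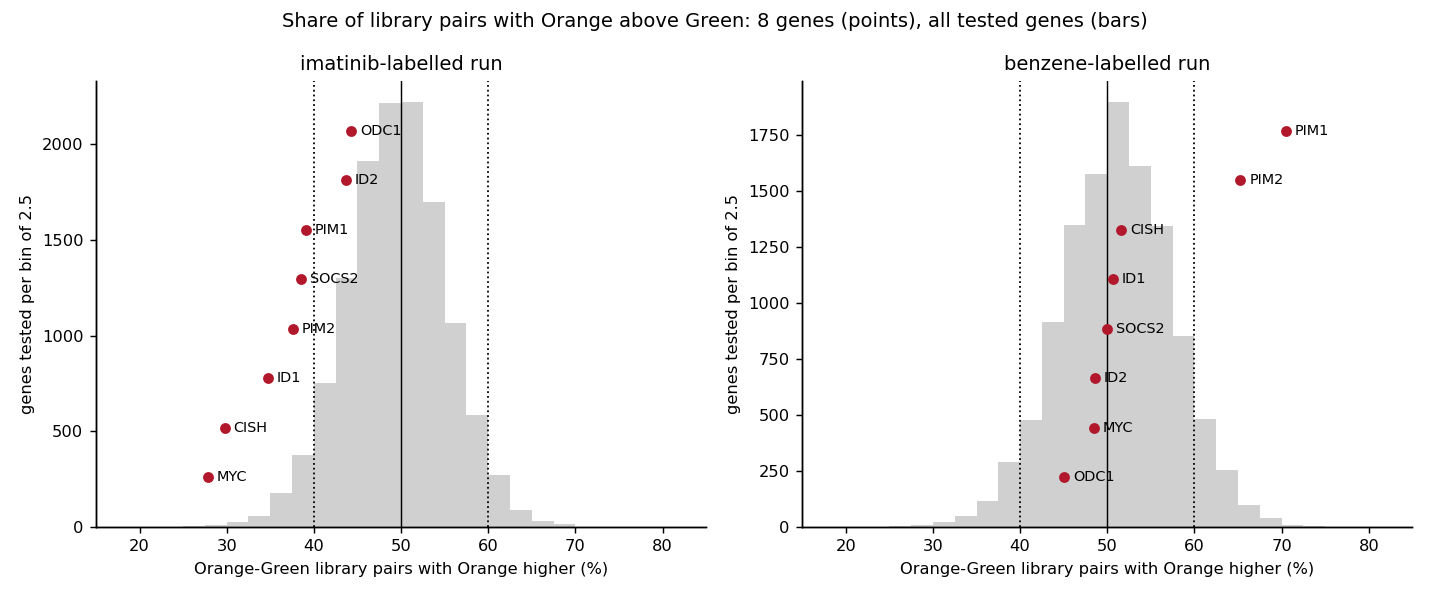
Share of Orange and Green library pairs in which the Orange library had the higher level, in percent, for the 8 genes (red points) over the histogram of all tested genes (grey bars). In the imatinib-labelled run the 8 genes lie between 27.9% and 44.3%, and in the benzene-labelled run PIM1 (70.5%) and PIM2 (65.3%) lie apart from the other 6, which are between 45.1% and 51.6%.

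In the benzene-labelled run, Orange was compared with Green in the same way, with 34 and 31 libraries. PIM1 and PIM2 were 1.5-fold or more higher in Orange, 2 of 8, against 23.7% of the 11393 genes tested, so the number by itself was near the background. None was 1.5-fold lower, against 20.1% of all genes, and none was beyond 2-fold, against 11.4% lower and 13.1% higher. By library pairs, PIM1 and PIM2 were again the 2 genes with Orange higher in over 60%, against 7.76% of all genes. None was under 40%, against 4.29%, and the limit of ties given above holds here too. The median log2 ratio of the 8 was -0.10, and that of all genes 0.04.

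PIM1 was read in all 65 libraries. In Green it ranged from 9.95 to 548 CPM with a median of 118 CPM, and in Orange from 43.9 to 769 CPM with a median of 291 CPM. The ranges overlapped, but 26 of 34 Orange libraries were above the Green median and the lowest Orange library was above the lowest Green. The summed level was 307 CPM in Orange and 185 CPM in Green, a log2 ratio of 0.73 (0.69 to 0.77), or 1.66-fold higher. Orange was higher in 70.5% of pairs, a share that stayed between 70.4% and 73.3% under the other choices.

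PIM2 ranged from 7.46 to 411 CPM in Green with a median of 118 CPM, and from 49.3 to 1095 CPM in Orange with a median of 181 CPM. Its log2 ratio was 0.85 (0.80 to 0.89), and Orange was higher in 65.3% of pairs. With a limit of 60% in place of 70% on the top 500 genes, the ratio was 0.55, below 1.5-fold.

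MYC and CISH, the genes furthest apart by library pairs in the imatinib-labelled run, were within 1.5-fold here, with overlapping ranges. MYC had medians of 172 CPM in Green and 145 CPM in Orange and a log2 ratio of -0.09 (-0.13 to -0.05). CISH was read in 27 of 31 Green and 31 of 34 Orange libraries, with medians of 56.1 and 73.3 CPM and a log2 ratio of -0.11 (-0.16 to -0.06). Orange was higher in 48.5% of pairs for MYC and 51.6% for CISH.

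SOCS2, ODC1, ID1 and ID2 also stayed within 1.5-fold. The log2 ratios were -0.15 for SOCS2, -0.22 for ODC1, 0.34 for ID1 and -0.51 for ID2. ID1 was read in 16 of 31 Green and 20 of 34 Orange libraries, and ID2 in 20 and 24. For ID2, 1 Orange library held 35.2% of the Orange reads, and without the highest library of each stain the ratio was -0.81. SOCS1 had 21 reads in Green and 37 in Orange, all of the latter in 1 library, and SOCS3 had 16 and 15. Median genes with more than 2 reads were 5963 in Green and 5860 in Orange, and median shares of ERCC reads 3.88% and 4.23%.

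**Figure D5:**
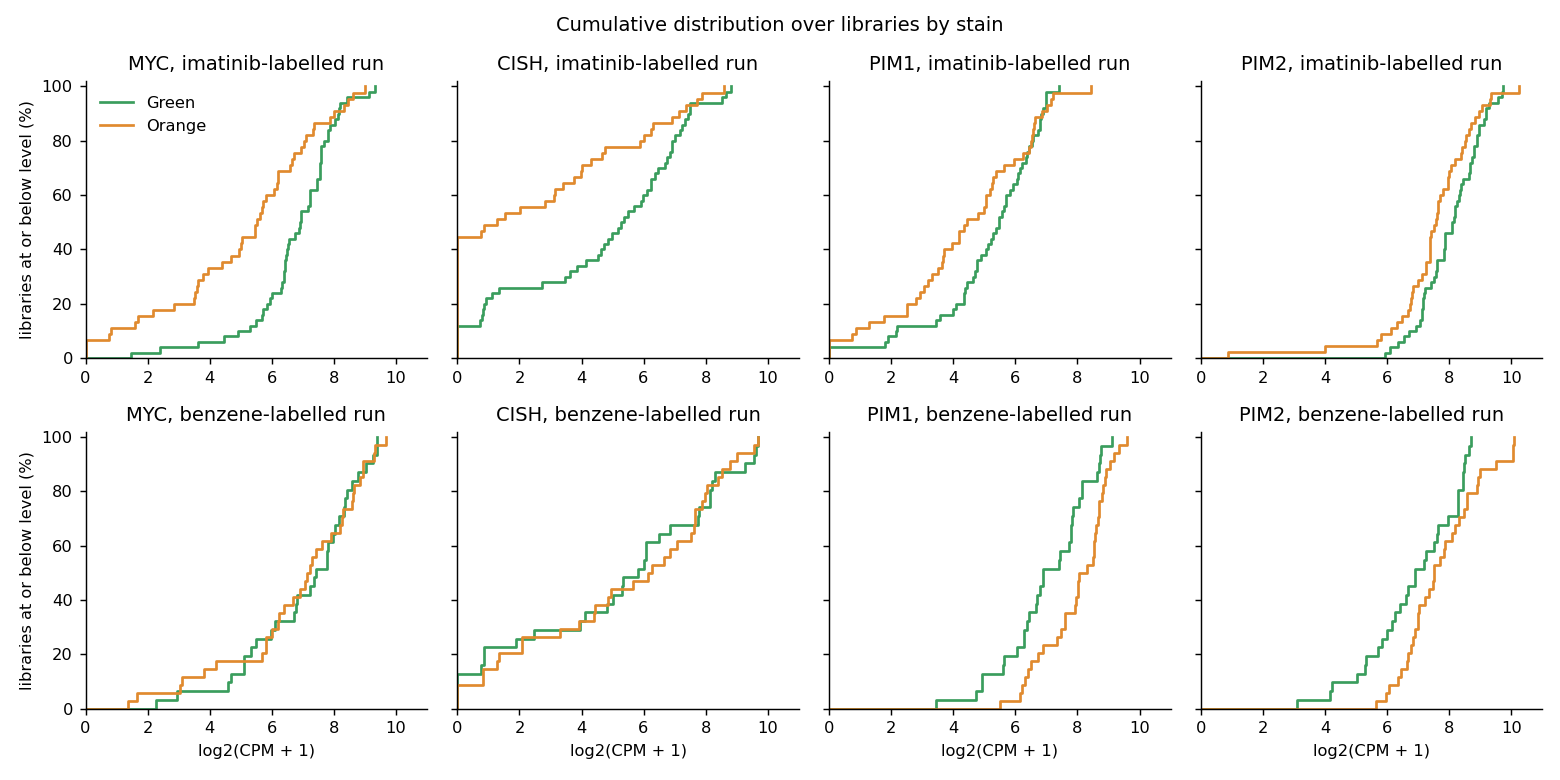
Cumulative share of libraries (percent) at or below each level of MYC, CISH, PIM1 and PIM2, as log2(CPM + 1), in Green and Orange of both CellTracker runs. The Orange curves of MYC and CISH lie to the left of Green over most levels in the imatinib-labelled run and close to Green in the benzene-labelled run, where those of PIM1 and PIM2 lie to the right.

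Genes around these pathways were read from lists chosen by function, with the same ratios. Their counts beyond 1.5-fold stand beside the shares of all genes given above. These were 11.9% lower and 10.2% higher in the imatinib-labelled run, and 20.1% lower and 23.7% higher in the benzene-labelled run. The lists, like the 10 genes, were chosen with earlier results of these data known, so their counts describe and do not test. Ratios given without a share of library pairs can rest on a few libraries. Of the receptors, kinases and adaptors that feed STAT5, 2 of 17 tested genes were 1.5-fold or more lower in Orange (11.8%) and 1 was higher (5.88%) in the imatinib-labelled run, close to the shares of all genes or below them. The erythropoietin receptor EPOR was at 9.28 CPM in Orange and 23.6 CPM in Green (log2 ratio -1.26), and the phosphatase PTPN1 at 67.7 and 124.7 CPM (-0.87). JAK1 was at 89.8 and 53.6 CPM (0.73). STAT5A itself, at 317 and 442 CPM, had a ratio of -0.48 and was higher in Orange in 38.2% of pairs. STAT5A was also lower in Orange in the benzene-labelled run, with a ratio of -0.52. There, 7 of 17 genes of this list were higher (41.2%) and 1 lower (5.88%), among the higher PTPN1 (1.22) and PIAS1 (1.09), an inhibitor of activated STATs.

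Of 12 further genes described as STAT5 targets, 3 were lower (25%) and 2 higher (16.7%) in the imatinib-labelled run. The survival factor MCL1 was at 16.97 CPM in Orange and 33.4 CPM in Green (-0.93), with Orange higher in 31.04% of pairs, a share like that of CISH. PIM3, the remaining PIM kinase, was at 2.84 and 6.09 CPM (-0.88). SOCS5 (-1.44) and SOCS6 (1.32) were under 10 CPM in both stains and lay at 50.4% and 55.5% of pairs. Of these, 4 of 11 were lower (36.4%) and 2 higher (18.2%) in the benzene-labelled run, with SOCS5 at -1.89 and SOCS4 at -1.81.

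Of the partners and antagonists of MYC, 5 of 12 were lower (41.7%) and 3 higher (25%) in the imatinib-labelled run. MAX, the obligate partner of MYC, was at 9.14 CPM in Orange and 18.7 CPM in Green (-0.96, with Orange higher in 31.5% of pairs). ZBTB17, through which MYC represses genes, was at 30.2 and 81.2 CPM (-1.40, 31.96% of pairs). Of the antagonists, MXD4 was at 2.84 and 10.2 CPM (-1.55) and MXD3 at 7.45 and 3.03 CPM (1.07). The benzene-labelled run had 1 of 12 lower, MYCL (-1.69), and 3 were higher, with MXD4 at 41.1 CPM in Orange and 2.13 CPM in Green (3.75). Orange was higher in 51.6% of pairs for MXD4.

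The targets of MYC in ribosome building, nucleotide synthesis and metabolism were close to even while MYC itself was lower. Of 39 tested, 1 was lower and 1 higher in the imatinib-labelled run (2.56% each), with a median log2 ratio of -0.07 against -0.02 for all genes. The ones furthest from 0 were RRS1 (-0.70) and IPO4 (0.59), both under 25 CPM, SHMT2 (0.53), a mitochondrial enzyme of serine metabolism, and PPAN (-0.45). In the benzene-labelled run 3 of 38 were lower (7.89%) and 9 higher, the latter a share of 23.7% that equalled that of all genes, with a median of 0.13, and NOC4L (1.77) and RRS1 (1.504) were furthest from 0.

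Around ODC1, 1 of 11 genes of polyamine metabolism was lower in Orange and none higher in the imatinib-labelled run, and 3 of 10 were lower and none higher in the benzene-labelled run. AMD1, which supplies the second substrate of polyamine synthesis, had ratios of -0.45 and -1.16. OAZ2, an antizyme that sends ODC1 protein to degradation, had ratios of 0.56 and -1.74. PAOX was at -0.78 in the imatinib-labelled run, and DHPS, which uses spermidine to modify a translation factor, was at 0.49 there. PAOX stood at only 3.33 CPM in Orange and 6.44 CPM in Green, and Orange was higher in 54.3% of pairs.

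Around ID1 and ID2, 2 of 11 genes were lower and none higher in the imatinib-labelled run, and 1 was lower and 3 higher in the benzene-labelled run. ID3 was at 8.77 CPM in Orange and 16.6 CPM in Green in the imatinib-labelled run (-0.85), the same direction as ID1 and ID2. The BMP receptor BMPR2 was at -1.80, SMAD4 at -0.43 and LYL1 at -0.40 there, and ACVR1 (1.80) and BMPR1A (-1.76) were furthest from 0 in the benzene-labelled run.

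Immediate-early genes, which respond to signalling and to handling within minutes, were read beside them because MYC also responds early. In the imatinib-labelled run 9 of 10 were 1.5-fold or more lower in Orange and none higher, with a median log2 ratio of -1.32. This list, too, was chosen with earlier results of these data known. EGR1 was at 178 CPM in Orange and 482 CPM in Green (-1.43) with Orange higher in 17.6% of pairs, and FOSB at 5.20 and 39.5 CPM (-2.71), JUN was at -1.79 and ATF3 at -1.67. Orange was lower for 3 of 10 and higher for 3 in the benzene-labelled run, with JUNB at 2.13 and DUSP1 at -1.65. By library pairs both lay near 50% there, at 48.01% for JUNB and 48.3% for DUSP1. The K562 and erythroid markers had none of 12 beyond 1.5-fold in the imatinib-labelled run and 1 lower in the benzene-labelled run, NFE2 (-0.64).

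Across the libraries of 1 group, the genes read in most of its libraries were compared in pairs, and differences between groups were not tested. ID1 was not among these genes in imatinib-run Orange, nor ID2 in the Hoechst run, so the medians do not cover the same pairs. The Spearman rho of log2(CPM + 1) between pairs of them had a median of 0.04 over 28 pairs in imatinib-run Green, from -0.21 to 0.26, and 0.17 over 21 pairs in imatinib-run Orange, from -0.23 to 0.52. The median was 0.14 in benzene-run Green, from -0.40 to 0.60 (SOCS2 with ID2), 0.04 in benzene-run Orange, from -0.26 to 0.50, and -0.01 in the Hoechst run, from -0.19 to 0.46. PIM1 and PIM2 were positively related in all 5 groups, with rho between 0.13 and 0.42. PIM1 and CISH had rho of 0.52 in imatinib-run Orange, 0.24 in imatinib-run Green, 0.40 and 0.34 in benzene-run Green and Orange, and -0.02 in the Hoechst run. MYC and ODC1 had rho of -0.15 in imatinib-run Green and 0.32 in Orange. In benzene-run Green and Orange it was -0.10 and -0.14, and in the Hoechst run -0.03. These values are descriptions over the libraries of each group, which differed in depth and may have differed in fixation and storage. In benzene-run Green, SOCS2 and ID2 had rho of 0.32 and 0.46 with the reads on genes. The part of depth in the values between genes was not tested.

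The genes most like each of the 8 across imatinib-run Green were taken from 9123 genes read in most libraries (at least 25 of 50). NOP16, a nucleolar protein of the MYC target list, came first for ODC1 with rho of 0.68. RPL6P19, a ribosomal protein pseudogene that can share reads with its parent gene, came first for CISH with 0.65, ahead of RGS10 (0.56). TAF1C led for MYC (0.50), AFG3L2 for PIM1 (0.56), LBHD1 for PIM2 (0.55), NDUFAF8 for SOCS2 (0.54), RPS6KC1 for ID1 (0.58) and SLC25A24 for ID2 (0.55). With 50 libraries and this many genes, 1 in 100 genes exceeded rho of 0.35 to 0.45 for each of the 8. The leading genes are the highest of 9123, so passing that level does not by itself set them apart.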

How the data were processed

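Counts per gene were deposited by the authors, whose methods name skewer for trimming, HISAT2 for alignment to GRCh37 plus ERCC spike-ins, and featureCounts for the reads mapped once to Ensembl genes (Subread 1.5.0 per the submitters' processing notes). The authors' CPM table was not used. Counts of 92 ERCC sequences were left out of library totals. Gene names and coordinates came from GENCODE v44lift37 (55665 identifiers, 99.0% of reads). In the benzene-labelled run 4 titles had no column and 4 columns no title, and these columns were not used.

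Libraries were grouped by title run, stain and treatment label, and 242 of 263 were kept by the 70% limit. No libraries had identical counts. Orange and Green were compared on summed counts with exact 95% Poisson-based intervals and no test, for genes read in at least 20% of the kept libraries of the run. TMM (edgeR 4.0.16) and DESeq2 (1.42.0) factors in R 4.3.3 were alternatives. Python 3.11.15, pandas 2.3.3, numpy 2.4.6 and scipy 1.17.1 were used, and matplotlib 3.10.9 for the figures. The ratio step was tested on simulated data. Named genes were the 10 genes, the 4 genes of each list with the largest ratio in the imatinib-labelled run and the 2 in the benzene-labelled run, and the 3 most correlated genes, of which the first are given. The genes and the lists were chosen with earlier results of these data known, and the share of library pairs was added after the ratios were seen. Of the listed genes, SOCS7 matched no row and was not analysed here.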

Additional observations from a re-analysis of the deposited data

Results flagged for a closer look

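PIM1, PIM2 and ID1 had log2 ratios of Orange over Green of opposite sign in the CellTracker runs, with 1.5-fold passed in at least 1 of them. The difference between the runs was not tested, since each stain of a run is treated as 1 culture. PIM1 was at -0.28 in the imatinib-labelled run and 0.73 in the benzene-labelled run, a difference of -1.003. PIM2 was at -0.37 and 0.85, a difference of -1.21. ID1 was at -1.26 and 0.34, a difference of -1.60. By library pairs, PIM1 and PIM2 also lay on opposite sides of 50% in the runs, whereas ID1 was at 50.7% in the benzene-labelled run, where its difference of mean log2(CPM + 1) was -0.08.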

How the results depend on the processing

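Under 12 alternatives of libraries, weights, pseudocounts, totals and depth, the 6 genes beyond 1.5-fold kept their direction. MYC (-1.69 to -0.74), CISH (-2.05 to -0.89) and ID1 (-1.85 to -0.62) in the imatinib-labelled run and PIM1 (0.65 to 0.96) in the benzene-labelled run passed 1.5-fold in all 12, ID2 in 10 (highest -0.43) and PIM2 in 11. Within 1.5-fold, the sign of CISH (0.19), SOCS2 (0.02) and ID1 (-0.08) in the benzene-labelled run changed as differences of mean log2(CPM + 1), and that of SOCS2 (0.22) with the 60% limit. At 2-fold, 2 genes were called in the imatinib-labelled run and 0 in the benzene-labelled run. The median of the 8 genes in the imatinib-labelled run was -0.74 as a difference of mean log2(CPM + 1), -0.46 with a pseudocount of 10 and -0.47 without a filter on detection. In the benzene-labelled run it was -0.013 with the 60% limit, -0.043 as a mean of CPM, -0.032 as a difference of mean log2(CPM + 1), -0.18 with TMM, -0.15 with DESeq2 factors and -0.034 after thinning. With the 60% limit, 1 gene was 1.5-fold higher there, 1 had Orange higher in under 40% of pairs and 1 in over 60%. With TMM, 1 gene was 1.5-fold lower there. The cause of these shifts was not tested. No paired analysis was possible because the library numbers follow only the order of the labels and the groups were compared without a test. The main limits are 1 culture per stain, the coincidence of stain and drug label, and a choice of genes made with earlier results known. Counts were also near 0 for SOCS1 and SOCS3, for which differences were not detectable at this depth in the CellTracker runs.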

Other observations

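The 21 libraries with over 70% of reads in their top 500 genes enter no comparison. In the 14 of the Hoechst run, PIM1 was read in 13 (median 48.4 CPM), SOCS2 in 11 (median 6.6 CPM) and MYC in 4 (highest 15.8 CPM), although MYC was read in all 82 kept libraries. In the 5 Green libraries of the benzene-labelled run, MYC ranged from 9.14 to 443 CPM and CISH was read in 2, with a highest value of 831 CPM. One of these libraries held 178 reads of SOCS1 (295 CPM), above the highest kept library of any run, at 59.96 CPM.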
